A study of Mus musculus with 12 samples.

Results

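Aminoacyl-tRNA synthetases are the enzymes that load each transfer RNA with its amino acid, so they supply the ribosome with its substrates. The cytosol and the mitochondria have largely separate sets, both encoded in the nucleus. Most mitochondrial enzymes have a gene of their own whose symbol ends in 2, while Gars and Kars serve both compartments. Several cytosolic synthetase genes are described in other cells as targets of ATF4, the transcription factor that raises amino acid supply genes when translation initiation is curbed under stress. Here the genes were taken as every protein-coding symbol in both deposited tables that consists of a capital letter and "ars", alone or with a 1 or 2 behind it, plus Eprs, Farsa, Farsb and Tarsl2. That gave 38 genes of the 45801 genes listed in either table and of the 12914 listed in both: 21 cytosolic synthetases, 16 mitochondrial synthetases and Lars2, the mitochondrial leucyl-tRNA synthetase, which is described apart because ribosomal RNA reads can be counted there.

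RNA was sequenced from blastocysts of the mouse (embryos that have not yet implanted) and from embryonic stem (ES) cells, the pluripotent cells cultured from blastocysts. Each material was sampled as Dis3L knockout (KO) and Dis3L wild type (WT), with 3 samples per group in the labels. Dis3l encodes a nuclease subunit of the cytoplasmic RNA exosome, which degrades RNA from the 3′ end. Per the labels, each blastocyst library came from 1 embryo, collected after hormone-stimulated ovulation and made into a library by Tn5 tagmentation of cDNA. Per the same protocols, the ES cell lines were grown on inactivated mouse embryonic fibroblasts with LIF, and ES cell RNA was depleted of ribosomal RNA before stranded libraries were made. The labels give neither the age of the mothers nor the allele behind the knockout, and they do not say how many ES cell lines each group represents. Nothing says that the ES cell samples were separate cultures, so p-values there measure the spread between these samples only, which may be technical.

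Each material has 1 deposited comparison table, with a mean of normalised read counts, a log2 fold change, its standard error (SE) and p-values from a Wald test per gene. Which genotype a positive value favours is not stated, so signs are those deposited, and the sides are called positive and negative rather than KO and WT. Whole reads per count column were solved from the deposited means. The blastocyst means came from 6 count columns (3 on each side), with relative depths from 0.695 to 1.62. The ES cell means came from 4 columns (2 on each side), with relative depths from 0.759 to 1.25, although the labels list 6 ES cell samples. Columns are numbered by depth within a side and were not matched to samples or genotypes. The targeted gene Dis3l had 26, 8 and 0 reads in the positive and 10, 4 and 8 in the negative blastocyst columns, so it did not separate the sides there. In ES cells it had 14 and 8 reads against 39 and 39, lower in both positive columns. The blastocyst read numbers were mostly even (95.1% over 6495 genes, against 49.4% in the ES cells), and the cause was not tested. The embryos carried the defining markers: Cdx2 and Krt8 of the trophectoderm, Pou5f1 and Nanog of the pluripotent cells, and Gata4 and Sox17 of the primitive endoderm were all measured, while 6 of 8 fibroblast markers, Col1a1, Col1a2, Col3a1, Dcn, Lum and Postn, were at 0, and Fbln2 and Thy1 had at most 54 reads in any column. In the ES cells all 8 fibroblast markers were measured beside the 8 pluripotency markers.

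In blastocysts, no synthetase of the authors' deposited table had an adjusted p-value under 0.05 (DESeq2), while 15 of 15209 tested genes had one (0.0986%). At an unadjusted p-value under 0.05, 4 of the 38 genes had a positive log2 fold change and 1 a negative one, against 2.68% and 3.53% of all tested genes (6.21% in either direction). The 4 positive genes were Nars, Lars, Cars and Tars, all cytosolic and all on the list of synthetases described elsewhere as ATF4 targets. The negative gene was Tarsl2, a cytosolic threonyl-tRNA synthetase encoded apart from Tars. Among tested genes with a mean of at least 250, the range that holds all cytosolic synthetases but Tarsl2, 4.67% had an unadjusted p-value under 0.05 with a positive sign. RNA of a whole embryo was measured, so fewer cells of a type and less RNA per cell cannot be told apart in any of these values.

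Nars (ENSMUSG00000024587, chromosome 18, 64499665 to 64516557 on GRCm38) charges the asparagine tRNA. It had 2876, 2602 and 2768 reads in the positive columns and 1436, 1980 and 630 in the negative columns. Divided by the relative depth of each column, these were 2053, 2641 and 3163 against 888, 2207 and 906 normalised reads. The sides overlapped, because the second negative column lay between positive columns, while the other two negative columns lay far below. In the authors' deposited table its mean was 1976 and its log2 fold change 0.97 (SE 0.36, unadjusted p = 0.00736, adjusted p = 0.537).

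Lars (ENSMUSG00000024493, chromosome 18, 42202350 to 42262122), the cytosolic leucyl-tRNA synthetase, had 1318, 1551 and 1194 reads in the positive and 778, 1090 and 226 in the negative columns. After normalisation the values were 941, 1574 and 1364 against 481, 1215 and 325. Again the second negative column fell among the positive ones and the other two stood apart below them. The log2 fold change in the authors' deposited table was 0.94 (SE 0.43, unadjusted p = 0.0288, adjusted p = 0.744), at a mean of 983.

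Cars (ENSMUSG00000010755, chromosome 7, 143557230 to 143600090), which charges the cysteine tRNA, had 1213, 971 and 849 reads against 342, 836 and 196. Normalised reads were 866, 985 and 970 in the positive columns, which differed little among themselves, and 212, 932 and 282 in the negative ones. In the authors' deposited table the mean of Cars was 708 and its log2 fold change 0.99 (SE 0.47, unadjusted p = 0.0350, adjusted p = 0.769). The second negative column was more than the sum of the other two.

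Tars (ENSMUSG00000022241, chromosome 15, 11383663 to 11399658), the cytosolic threonyl-tRNA synthetase, had 2053, 1174 and 1484 reads in the positive and 1455, 1082 and 440 in the negative columns. The normalised values were 1466, 1192 and 1696 against 900, 1206 and 633, so the sides overlapped only through the second negative column, which was just above the lowest positive one. At a mean of 1182 the authors' deposited table gave a log2 fold change of 0.67 (SE 0.31, unadjusted p = 0.0330, adjusted p = 0.764).

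Tarsl2 (ENSMUSG00000030515, chromosome 7, 65644898 to 65692091) was the member nearest to the adjusted threshold, and it rested on few reads. It had 0 reads in all 3 positive columns and 86, 2 and 40 in the negative columns, or 53.2, 2.23 and 57.5 after normalisation. Since blastocyst reads were mostly even, a count of 0 was taken to allow 3 pairs, or 6 reads, per column. The mean of the positive side then lay at least 6.56-fold lower than that of the negative side. It was at least 5.20-fold or 4.82-fold lower without the first or the third negative column. These are bounds on side means under that allowance. The second negative column, at 2.23, lay below the positive mean of 5.74 that the allowance gives, so it was not told apart from the positive side. In the authors' deposited table its mean was 18.8 and its log2 fold change −7.77 (SE 1.93), a fitted size that is no bound, since no read on the positive side limits it. Its unadjusted p-value was 5.8e-05 and its adjusted p-value 0.0551. Adjusted over the 12392 protein-coding genes alone, the p-value was 0.0449, under the threshold. How reads shared between Tars and Tarsl2 were counted is not given in the sources used here.

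**Figure D1:**
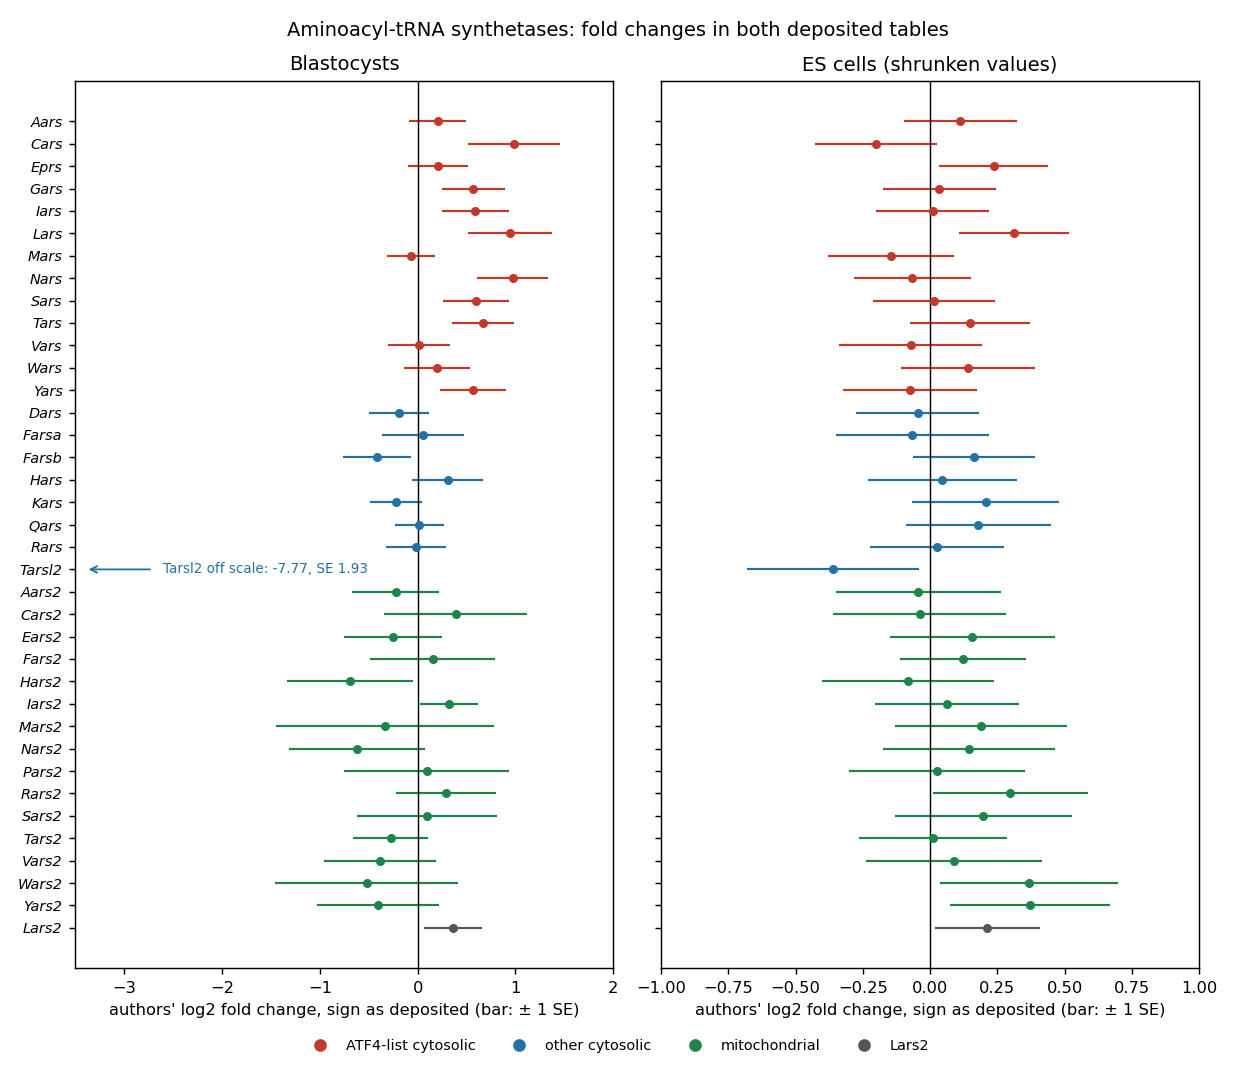
Log2 fold change of the authors' deposited tables for the synthetases named in the text (points; bars, 1 SE; signs as deposited), in blastocysts on the left and ES cells on the right, whose values are shrunken and on a narrower axis. In blastocysts 12 of the 13 synthetases on the ATF4 list lie to the right of 0, and Tarsl2 lies off the scale at −7.77.

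The 21 cytosolic synthetases had a median log2 fold change of 0.20 in blastocysts, with 15 of them positive, while all tested genes had a median of −0.04 and 48.3% positive. The direction was uneven between the lists. Of the 13 synthetases on the ATF4 list, 12 were positive (median 0.57, median SE 0.33), and the exception was Mars, the methionyl-tRNA synthetase, at −0.07. Besides the 4 genes above, Sars, Iars, Gars and Yars had values from 0.57 to 0.59 with unadjusted p-values from 0.0781 to 0.0967 in the authors' deposited table. Aars, Eprs, Wars and Vars lay between 0.02 and 0.21. The reads of Aars, Gars and Mars could not be solved; their means and fold changes correspond to 2256, 3067 and 1355 normalised reads on the positive and 1959, 2071 and 1418 on the negative side. Of the other 8 cytosolic genes 3 were positive (median −0.11): Hars, Farsa and Qars at 0.31, 0.05 and 0.02. Dars, Farsb, Kars and Rars lay between −0.42 and −0.02, each with an unadjusted p-value of 0.234 or more.

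The reads by column were uneven within the negative side. For each of its 10 genes with recovered reads, namely Cars, Eprs, Iars, Lars, Nars, Sars, Tars, Vars, Wars and Yars, the second negative column was the highest of its side. Over all 6495 genes with recovered reads and a mean from 60 to 1000, that column was the highest of its side in 36.8%, and over the 2200 of them with a mean of at least 250 in 40.7%. All 3 positive columns lay above the first and the third negative columns in 9 of the 10 genes, all but Vars, against 18.3% and 22.5% of those background genes. The choice of this column was made after its values were seen. Eprs, Iars, Nars, Sars, Tars and Vars have means above 1000, outside the range of the background genes. Their reads are also less firmly determined than the rest. In the other 4 genes, Cars, Lars, Wars and Yars, both statements held in 4 of 4. Relative to each gene's mean over the 6 columns, the median of the 10 genes was 0.15, 0.34 and 0.34 on the log2 scale in the positive columns. It was −0.84, 0.30 and −0.71 in the negative columns. Summed, their normalised reads were 13700, 15122 and 15247 against 7459, 14975 and 7078. The sum of the second negative column lay within the range of the positive ones, and those of the other two were below it and close to each other.

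Sars, for serine, had 1492, 1561 and 1488 normalised reads in the positive columns and 632, 1536 and 843 in the negative ones. Iars, for isoleucine, had 2604, 2755 and 2285 against 1111, 2723 and 1252. In both genes the second negative column lay among the positive ones. Yars, for tyrosine, had 671, 883 and 868 against 401, 765 and 472. Eprs, whose product charges both glutamate and proline tRNAs, had a smaller gap with 1605, 1754 and 1808 against 1354, 2092 and 1021. Vars, for valine, did not separate the low columns from the positive ones (1478, 1236 and 928 against 1038, 1634 and 932). Without the second negative column the median log2 ratio of these 10 genes was 0.98, against 0.59 with every column. Without the first or the third it was 0.37 or 0.47. With any 1 of the 6 columns left out 8 to 10 of the 10 ratios were positive. Leaving out the second negative column moved Nars to 1.55, Lars to 1.68, Cars to 1.93 and Iars to 1.11.

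**Figure D2:**
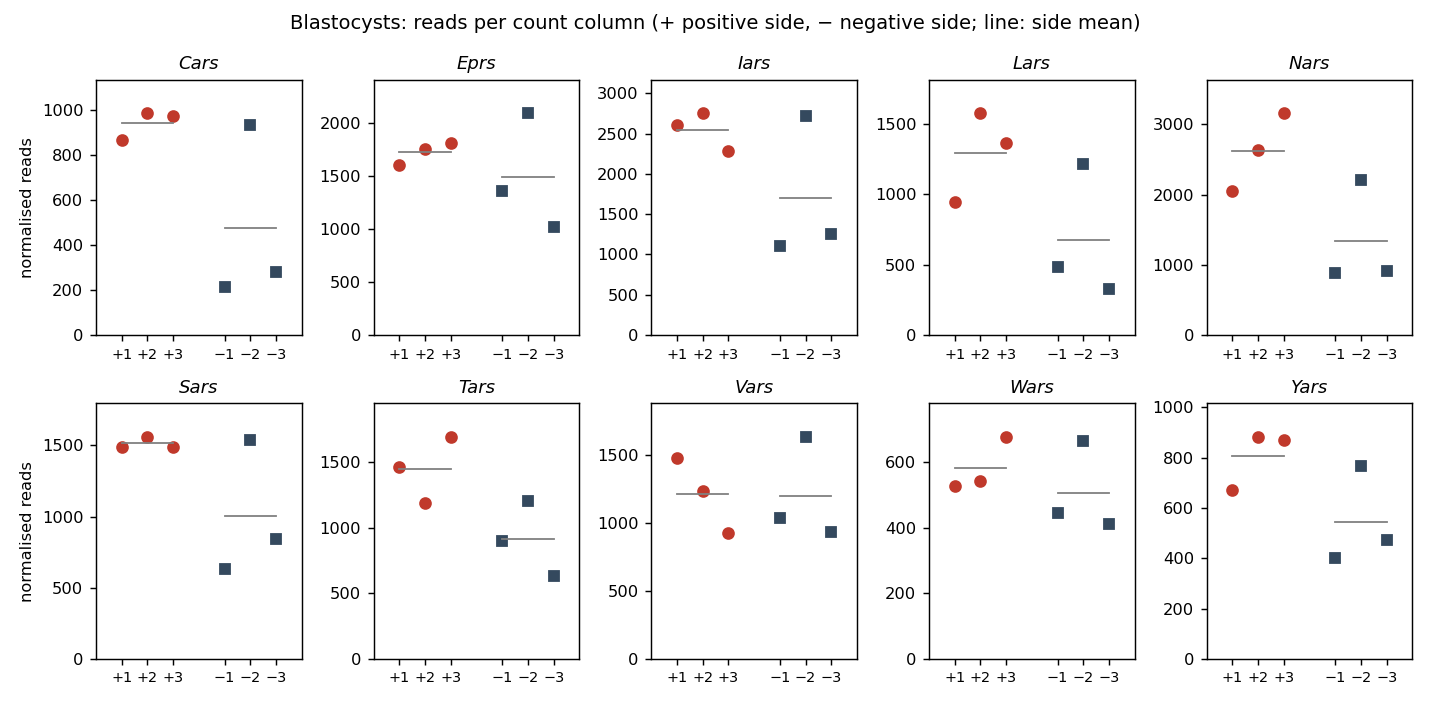
Normalised reads of 10 cytosolic synthetases on the ATF4 list in each blastocyst count column (circles, positive side; squares, negative side; line, mean of the side; axes start at 0). In Cars, Iars, Lars, Nars, Sars and Yars the second negative column stands with the positive columns, and the other two lie below all of them.

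In the 8 other cytosolic synthetases the column sums were closer together. Their summed normalised reads were 4319, 4575 and 4254 in the positive and 4896, 4699 and 4465 in the negative columns, and the second negative column was the highest of its side in 3 of the 8, Hars, Qars and Rars. Qars, for glutamine, was nearly level in all columns, between 1145 and 1413 normalised reads. Kars, for lysine, had 697, 794 and 841 against 876, 916 and 924, with no overlap of the sides, yet a log2 fold change of −0.22 (SE 0.27) in the authors' deposited table. Hars, for histidine, had 358, 302 and 305 against 223, 297 and 262, again without overlap, at 0.31 (SE 0.36). Of the 34 members with recovered reads, Hars and Iars2 had every positive column above every negative one, and Kars and Tarsl2 the reverse. Over the 6495 genes the shares were 6.34% and 6.61%.

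**Figure D3:**
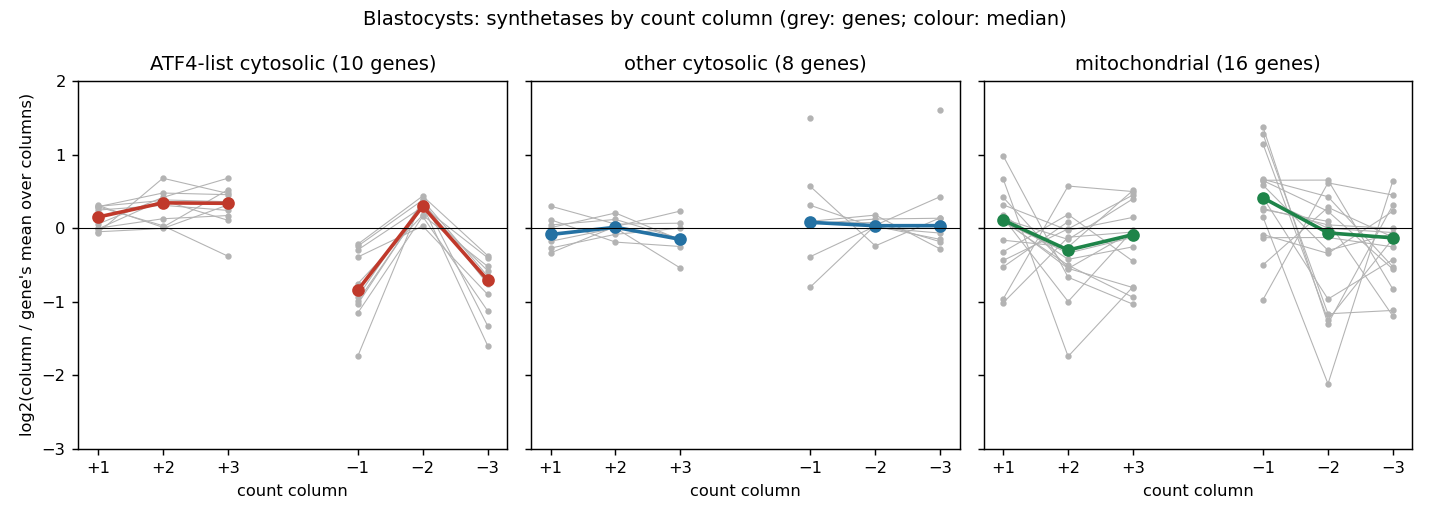
Normalised reads of each blastocyst count column relative to the gene's mean over the 6 columns, on the log2 scale, for 3 sets of synthetases. Grey marks genes and colour their median, and columns are ordered by falling depth within a side. The median of the ATF4 list is −0.84 and −0.71 in the first and the third negative columns and 0.30 in the second, while the medians of the other cytosolic genes run from −0.15 to 0.08; 5 values at 0 or below the axis, 4 of them of Tarsl2, are not drawn.

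Genes of the ATF4 response were set beside the synthetases. Chac1, a glutathione-degrading enzyme induced by ATF4, had 116, 250 and 89.1 normalised reads against 2.47, 15.6 and 11.5, with no overlap. Its log2 fold change of 3.99 (SE 0.80) was among the calls of the authors' deposited table (adjusted p = 0.00213). Atf4 itself had 824, 1372 and 1001 against 545, 863 and 662 (log2 fold change 0.63, SE 0.32, unadjusted p = 0.0502). The pseudokinase gene Trib3 and the asparagine synthetase gene Asns also had a high second negative column: Trib3 had 124, 181 and 208 against 4.95, 261 and 0, and Asns 1022, 1112 and 873 against 361, 1159 and 752. All 6 reference genes, Atf4, Asns, Chac1, Ddit3, Psat1 and Trib3, had a positive sign in blastocysts, and Chac1 alone had an unadjusted p-value under 0.05. The list was written from general knowledge with earlier results of these data known, so the shared direction is a description.

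No marker of an embryo cell type had an adjusted p-value under 0.05, and the lowest was 0.205, for Tdgf1. Of 8 pluripotency markers, Nanog, Pou5f1 and Tdgf1 had unadjusted p-values under 0.05, with log2 fold changes of −1.93, −1.21 and −1.75 in the authors' deposited table. Klf4 was at −0.53, while Dppa5a, Esrrb, Sox2 and Zfp42 were near 0, at −0.13, 0.003, 0.03 and −0.05. The summed normalised reads of the 7 pluripotency markers with recovered reads ran from 888 to 1752 in the positive and from 1721 to 2394 in the negative columns, and none was at 0 in any column. Of 7 trophectoderm markers Krt8 and Krt18 were negative (−0.87 and −0.63) and Gata3 positive (0.52) at an unadjusted p-value under 0.05. Cdx2, Elf3, Id2 and Tfap2c were at −0.03, 0.008, −0.07 and 0.17. Of 5 primitive endoderm markers Sox7 was positive (3.27) at that level. The other 4, Gata4, Gata6, Pdgfra and Sox17, had values of −0.32, −0.77, −0.08 and −0.16, with unadjusted p-values of 0.0563 or more. The second negative column, high for the synthetases, was at 1721 for the pluripotency sum, the lowest of its side. By the median relative to each gene's mean, on the log2 scale, the second negative column was not the lowest. The negative columns were then at 0.07, 0.21 and 0.42. The part of cell type make-up in the synthetase values was not tested.

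The core of the element bound by ATF4 and C/EBP dimers, TGATGNAA, was looked up on both strands of RefSeq promoter windows (GRCm38.p6, 250 bases before to 50 after the start site), because the genes of the ATF4 list shared a sign in blastocysts. Windows were held for 28 of the 38 synthetases. The letters occurred in 5 of them, against 4.51% of 27025 genes with a window and 2.64% of 9408 tested protein-coding genes. All 5 are on the ATF4 list, which has 8 genes with a window, while 0 of 6 other cytosolic and 0 of 13 mitochondrial windows held them. The list consists of genes already described as ATF4 targets, so the list and the letters are not independent of each other. The stretches are shown on the gene's strand, 5′ to 3′, with the match in capitals (a match on the opposite strand reads TTNCATCA); positions count from the start site as base 0. Chac1, the only called gene of the ATF4 response list, is given for comparison.
Aars, −112, chr8:111033710-111033757 (+): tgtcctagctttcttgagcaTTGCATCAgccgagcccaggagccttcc
Aars, 9, chr8:111033831-111033866 (+): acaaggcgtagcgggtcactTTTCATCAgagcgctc
Gars, −30, chr6:55037951-55037998 (+): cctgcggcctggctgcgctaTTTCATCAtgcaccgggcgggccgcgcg
Iars, 7, chr13:49682117-49682154 (+): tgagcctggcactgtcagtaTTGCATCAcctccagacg
Tars, −15, chr15:11399646-11399693 (−): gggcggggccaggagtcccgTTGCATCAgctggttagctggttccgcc
Yars, 3, chr4:129189886-129189927 (+): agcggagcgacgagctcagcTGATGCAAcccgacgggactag
Chac1, −193, chr2:119351029-119351076 (+): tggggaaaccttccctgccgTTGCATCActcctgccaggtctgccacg

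Aars has the letters at 2 places, and the matches of Aars, Gars, Iars, Tars and Yars lie from −112 to 9 around the start. Their log2 fold changes in blastocysts were 0.20, 0.57, 0.59, 0.67 and 0.57. Eprs, Mars and Sars, on the list and with a window, had no match, and their values were 0.21, −0.07 and 0.59. Cars, Lars, Nars, Vars and Wars, also on the list, had no window and could not be looked up. Of the synthetases with a positive sign at an unadjusted p-value under 0.05, only Tars was looked up. A match is a run of letters and not a measured binding site, and these data hold no binding measurement.

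The mitochondrial synthetases had lower counts and no gene near either threshold in blastocysts. Their median log2 fold change was −0.27 (median SE 0.64), 6 of 16 were positive, and the lowest unadjusted p-value in the authors' deposited table was 0.279, for Iars2. Without the first negative column, the one with their highest median (0.41 on the log2 scale relative to each gene's mean), their median log2 ratio was 0.02. Iars2, the isoleucyl enzyme of mitochondria, had 710, 558 and 631 normalised reads against 521, 522 and 478. Cars2, Fars2, Pars2, Rars2 and Sars2 were the other positive genes (0.09 to 0.39), and Aars2, Ears2, Hars2, Mars2, Nars2, Tars2, Vars2, Wars2 and Yars2 had negative values (−0.69 to −0.22). In 13 of 16 pairs of a cytosolic gene with its mitochondrial partner the cytosolic gene had the higher log2 fold change. The 3 exceptions were Farsa and Farsb, the subunits of the cytosolic phenylalanine enzyme, each against Fars2, and Rars against Rars2. Lars and Lars2 were not counted as a pair. In the ES cells the cytosolic gene had the higher log2 fold change in 6 of 16 pairs.

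Other parts of the charging machinery were set beside the enzymes. The multisynthetase complex holds 8 of the cytosolic enzymes, Dars, Eprs, Iars, Kars, Lars, Mars, Qars and Rars, on 3 scaffold proteins. Its 8 enzymes had a median log2 fold change of −0.00 in blastocysts, 4 positive and 4 negative, with Lars the only 1 at an unadjusted p-value under 0.05. The scaffold genes Aimp1, Aimp2 and Eef1e1 were all negative, at −0.55, −0.995 and −0.27, and the lowest of their unadjusted p-values was 0.0865. Class I enzymes (11 of 18 positive, median 0.11) and class II enzymes (10 of 19 positive, median 0.05) were close to each other. The class I count includes Lars2, at 0.36. Of 5 tested accessory genes of the cytosol, such as the tRNA exporter Xpot, 3 were positive, and of 4 mitochondrial ones, such as the formyltransferase Mtfmt, 1 was; none had an unadjusted p-value under 0.05.

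Lars2 (ENSMUSG00000035202, chromosome 9, 123366940 to 123462664) stood outside the range of its family. Its mean in the authors' deposited blastocyst table was 964623 normalised counts, 20.9% of the sum over all genes and the highest mean of any tested gene. Its log2 fold change was 0.36 (SE 0.29, unadjusted p = 0.219), and its reads per column could not be solved at that size; the mean and fold change correspond to 1084470 on the positive and 844778 on the negative side. In the ES cells, from RNA depleted of ribosomal RNA, its mean was 3163, or 0.209% of the sum, with a log2 fold change of 0.21 (SE 0.20, unadjusted p = 0.278). Gm26917 and Rn18s-rs5 were listed beforehand as genes where ribosomal RNA reads can be counted. They had means of 37068 and 55522 in the blastocyst table. Their log2 fold changes there were −0.61 and −0.49 (unadjusted p = 0.00748 and 0.0398, Wald test), opposite in sign to Lars2. Neither was in the ES cell table, which lists protein-coding genes only (13009 of 13009). Their absence there is no measure of ribosomal RNA depletion. The share of ribosomal RNA reads in the Lars2 counts was not tested.

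Levels were compared between genes per length: the authors' mean divided by the exonic length of the longest transcript, scaled to a common total over protein-coding genes without Lars2. In blastocysts the cytosolic synthetases had a median level of 306 and the mitochondrial ones of 33.5, while the median over expressed protein-coding genes was 20.3. Gars, for glycine, was highest at 1145, before Nars at 764 and Iars at 509, and Mars2, Tarsl2 and Wars2 were lowest at 2.35, 6.26 and 11.5. The order depends on the length used: by coding length Nars stood just above Gars, with Sars next, and Tarsl2, Mars2 and Pars2 were lowest. Gars (chromosome 6, 55038001 to 55079504) had a mean of 2569 in the authors' deposited table, with a fold change of 0.57 on the log2 scale (SE 0.32, unadjusted p = 0.0781). Lars and Lars2 were again not counted as a pair. In each of the other pairs the cytosolic gene exceeded its mitochondrial partner. The ratio ran from 3.51-fold for Tars over Tars2 to 204-fold for Mars over Mars2, with a median of 7.77-fold. By coding length the ratio of Mars to Mars2 was 35.7.

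Of the genes with low levels, Mars2 (chromosome 1, 55237177 to 55248470) had 20.0, 28.4 and 18.3 normalised reads in the positive and 60.6, 11.1 and 11.5 in the negative blastocyst columns. Its log2 fold change of −0.34 (SE 1.11, unadjusted p = 0.763) turned to a log2 ratio of 0.97 without the first negative column. Wars2 (chromosome 3, 99141068 to 99239186) had 75.7, 14.2 and 27.4 against 105, 20.1 and 43.2, with −0.52 (SE 0.94, unadjusted p = 0.578). In Wars2 the first column of each side was well above the rest of its side, and in Mars2 the first negative column was above all others.

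**Figure D4:**
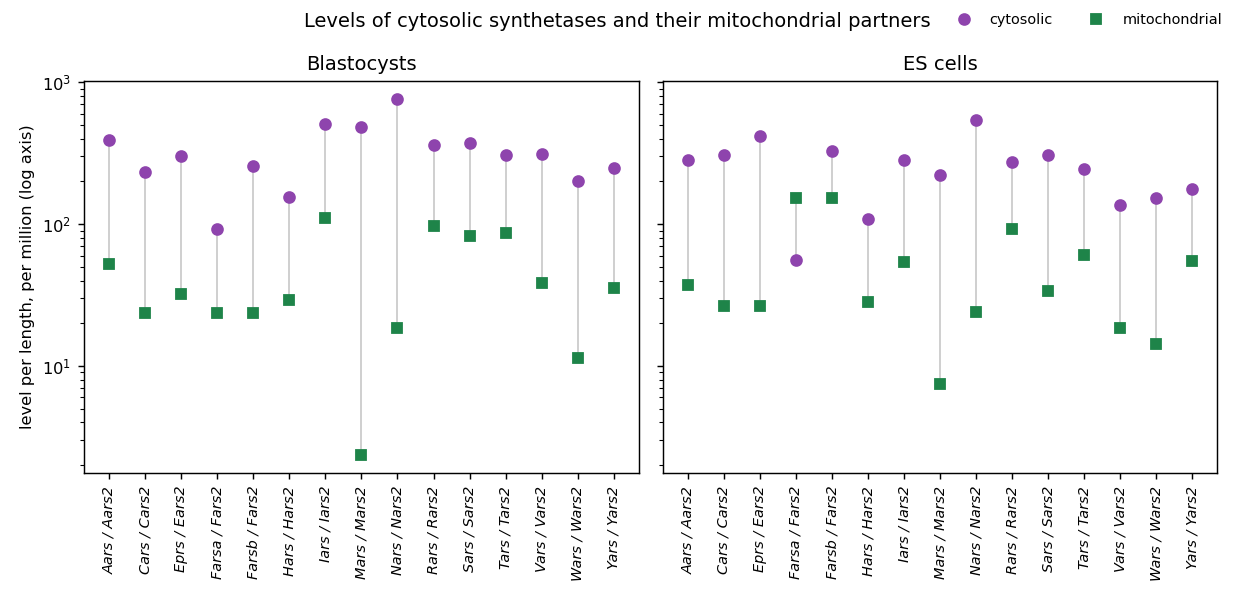
Level per length (log axis) of cytosolic synthetases (circles) and their mitochondrial partners (squares) in blastocysts and ES cells. Every cytosolic gene shown lies above its partner except Farsa in ES cells, which is at 0.369 of Fars2. Lars and Lars2 are not shown. The level is the mean over all count columns, so it has no error bar.

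The ES cells had the same order of compartments. The median level was 276 for the cytosolic and 27.4 for the mitochondrial synthetases, against 28.1 over expressed protein-coding genes. Gars, Nars and Eprs were highest, at 762, 538 and 419, and Mars2, Tarsl2 and Wars2 were lowest at 7.48, 8.003 and 14.4. By coding length the highest were Nars, Gars and Sars, and the lowest Tarsl2, Vars2 and Sars2. In 15 of 16 pairs, which leave out Lars and Lars2, the cytosolic gene was higher. The exception was Fars2, at 152 against 55.9 for Farsa, while Farsb stood at 330. In blastocysts Fars2 was at 23.7. The gene end listed for Fars2 was 36537592 in blastocysts and 36726280 in ES cells, while the same exonic length, 3366 bases, was used for both. The part of this difference in the level was not tested. The tables come from different library preparations, so a level in 1 material is not compared with that in the other by a test.

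In the ES cells no synthetase passed the adjusted threshold in the authors' deposited table, in which 28 of 10739 tested genes did (0.261%), and none had an unadjusted p-value under 0.05, against 5.62% of all tested genes (2.21% positive and 3.42% negative). The lowest unadjusted p-value of the family was 0.127, for Lars. Fold changes in this table are shrunken, with no SE above 0.33, so their sizes are not set against the blastocyst ones. The cytosolic median was 0.03 with 13 of 21 positive, the mitochondrial median 0.10 with 12 of 16 positive, and the median of all tested genes −0.00 with 50.0% positive. The ATF4 list had 8 of 13 positive with a median of 0.01.

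Lars had 1163 and 661 reads in the positive and 773 and 701 in the negative ES cell columns, or 928 and 870 against 735 and 677 after normalisation. The sides did not overlap, and the authors' deposited table gave a log2 fold change of 0.31 (SE 0.20). Nars, at 801 and 615 against 709 and 785, overlapped (−0.07, SE 0.22, unadjusted p = 0.760), as did Cars at 506 and 394 against 475 and 584 (−0.20, SE 0.23, unadjusted p = 0.378). Tars had 478 and 564 against 515 and 409 (0.15, SE 0.22, unadjusted p = 0.507). Gars had 998 and 811 against 935 and 828, a log2 fold change of 0.03 (SE 0.21, unadjusted p = 0.869). The reads of Eprs were not solved; its mean was 1164 and its log2 fold change 0.24 (SE 0.20, unadjusted p = 0.244).

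Tarsl2 was low in the ES cells too, with 11 and 6 reads against 13 and 22, or 8.78 and 7.90 against 12.4 and 21.3 after normalisation. The sides did not overlap, and the log2 ratio of −1.01 was larger than the shrunken log2 fold change of −0.36 (SE 0.32, unadjusted p = 0.259). Mars2 had 49.5 and 42.1 against 41.8 and 32.9 (0.19, SE 0.32, unadjusted p = 0.555), and Wars2 27.1 and 50.0 against 28.5 and 19.3 (0.37, SE 0.33, unadjusted p = 0.268). Yars2, the mitochondrial tyrosine enzyme, had a log2 fold change of 0.37 (SE 0.30, unadjusted p = 0.214) and a log2 ratio of 0.51, from 105 and 73.7 against 70.4 and 55.1.

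Among the 36 members with recovered ES cell reads, 7 had both positive columns above both negative ones, namely Farsb, Lars, Fars2, Mars2, Rars2, Sars2 and Yars2, and Tarsl2 alone had the reverse. Over 10000 ES cell genes with recovered reads and a mean from 12 to 1000 these shares were 20.2% and 20.3%. Atf4 (420 and 396 against 419 and 413) and Chac1 (127 and 89.5 against 128 and 87.9) had overlapping sides with log2 fold changes of −0.02 and 0.01. The multisynthetase complex enzymes had 6 of 8 positive signs and a median of 0.10, and the scaffold genes 2 of 3 positive. All 6 cytosolic accessory genes were positive (median 0.18), with the lowest unadjusted p-value at 0.163.

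Markers of other cell types were summed in the ES cell columns too. The fibroblast markers with recovered reads summed to 584 and 556 normalised reads in the positive and 695 and 1033 in the negative columns. Postn had 3 and 0 reads against 1 and 131. Of the 8 fibroblast markers Col1a1 and Lum had unadjusted p-values under 0.05, at −0.92 and −0.70 in the authors' deposited table, and of 5 tested trophectoderm markers Tfap2c did, at 0.91. The other 4, Elf3, Id2, Krt8 and Krt18, were at −0.23, −0.52, −0.59 and −0.37. The 8 pluripotency markers all had negative values (median −0.32), none with an unadjusted p-value under 0.05, and the 7 with recovered reads summed to 3821 and 3102 against 4857 and 4206. The 16 mitochondrial synthetases summed to 1184 and 1227 against 1073 and 1093. The 20 cytosolic ones with recovered reads summed to 8438 and 7701 against 8110 and 7482. The second negative column, highest in the fibroblast sum though not in each fibroblast marker, was the lowest of the cytosolic sums. The part of cell make-up in these values was not tested.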

How the data were processed

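RNA sequencing of 12 samples in 4 groups was deposited as 2 comparison tables, which hold 0 columns of per-sample values. Per the submitters' processing notes, STAR 2.4.0b, SAMtools, bedtools, featureCounts, Subread 2.0.1 and DESeq2 1.34.0 were used on GRCm38, with roles not given. Per the file headers, the signal column is the authors' mean of normalised counts, the log2 columns are their log2 fold change and its standard error, the score is their Wald statistic, and the p-value columns hold its two-sided p-value and the Benjamini-Hochberg adjusted p-value. All p-values and adjusted p-values printed are those deposited by the authors (DESeq2), adjusted over all tested genes, except that other sets of genes were adjusted here by Benjamini-Hochberg for the alternatives, among them the value for Tarsl2 over protein-coding genes.

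Whole reads per column were solved from each mean as a sum of reads times a fixed step per column. In blastocysts the combination kept was the only 1 that gave back the deposited log2 fold change in a negative binomial fit. This worked for 34 of 38 members in blastocysts and 36 in ES cells, and for 99.2% of 6549 background genes, and was tested on simulated data for means from 60 to 1000. The 7 members with higher means (Eprs, Iars, Nars, Qars, Sars, Tars and Vars) lie outside that range: each was chosen among 3550208 to 40457515 combinations, its fold change came within 3.31e-09 of the deposited one, and the nearest other combination was 1.67e-08 away or more. Of their 42 read numbers 39 were even, as most blastocyst reads were. Reads carry counting error only, and PCR copies without molecular tags are not separate molecules. Exonic and coding lengths came from GENCODE M21, which is on GRCm38.

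Named by rule were every member (1 gene is not reported here, though the counts and medians of its lists include it), with full values for an unadjusted p-value under 0.05, for Lars2 and for the 3 highest and 3 lowest levels; genes of other lists at an unadjusted p-value under 0.05; and Dis3l, Atf4 and Chac1. Sars, Iars, Yars, Eprs, Vars, Hars, Kars, Qars, Iars2, Trib3, Asns and Yars2 were given more values after these were seen. Members and lists were chosen with earlier results of these data known. No test was made over a list or across count columns. Python 3.11.15, numpy 2.4.6, pandas 2.3.3, numba 0.67.0 and matplotlib 3.10.9 were used.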

Additional observations from a re-analysis of the deposited data

How the results depend on the processing

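No paired analysis was possible because the count columns carry no replicate numbers and the tables hold no per-sample values. The count of members past an adjusted p-value of 0.05 was 0 in both materials in the authors' adjustment, at a threshold of 0.01, over every gene with a p-value and over genes with a mean of at least 50. Over protein-coding genes it was 1 in blastocysts, Tarsl2, and 0 in ES cells, with fewer genes adjusted for. The threshold of 0.01 could only give 0 again. A mean of at least 50 leaves out Tarsl2, the only member near the threshold. The lowest Benjamini-Hochberg adjusted p-value of a blastocyst member was then 0.505, for Nars. Neither of these 2 settings could therefore test the count. Centring, a mean of at least 50, ratios of reads, the placing of Gars, Kars and Lars2 and the omission of Tarsl2 turned the sign of neither the cytosolic nor the mitochondrial median in either material. With 1 count column left out at a time, the blastocyst medians ran from 0.15 to 0.44 for cytosolic members, from −0.38 to 0.0167 for mitochondrial members (positive without negative column 1), from 0.37 to 0.98 for the ATF4 list (highest without negative column 2) and from −0.14 to 0.0638 for the other cytosolic genes (0.00197 without positive column 1). The same ranges in ES cells were −0.0484 to 0.15 (−0.0126 without negative column 2), 0.09 to 0.18, −0.0963 to 0.20 (−0.00932 without negative column 2) and −0.0681 to 0.11 (−0.0254 without negative column 2), so of these only the mitochondrial sign held with every column left out. Positive ratios numbered 8 to 10 of 10 in the ATF4 list and 1 to 4 of 7 other cytosolic genes in blastocysts, and 4 to 11 of 12 and 2 to 6 of 8 in ES cells. The cause was not tested. The cytosolic over the mitochondrial median level, 9.15 in blastocysts and 10.1 in ES cells, was 6.60 and 5.46 by coding length. The choice to leave out columns for the ATF4 list and the other cytosolic genes was made after seeing the data. The comparison of protein sequences was not run. Members with few reads are limited by depth: the lowest means were those of Tarsl2, 18.8 in blastocysts and 12.6 in ES cells, and the mitochondrial means ran from 25.0 to 570 and from 31.0 to 251.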

Other observations

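The columns were compared by count over the other lists, a description made after their values were seen. All 3 positive blastocyst columns lay above the first and the third negative columns in 1 of 8 other cytosolic synthetases, Hars, and in 1 of 16 mitochondrial ones, Iars2. The second negative column was the highest of its side in 4 of the 16 mitochondrial genes, Fars2, Hars2, Iars2 and Vars2. Over all 6495 genes the medians of the 6 columns relative to each gene's mean lay between −0.05 and −0.04 on the log2 scale. The columns were not matched to genotypes, and what sets the second negative column apart in the genes of the ATF4 list was not tested.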
